A study of Homo sapiens with 6 samples.

Results

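The thioredoxin and peroxiredoxin system was followed here as 10 genes, chosen by name: *TXN*, *TXNRD1*, *TXNIP*, *SRXN1* and *PRDX1* to *PRDX6*. These genes, and the list of other genes used further on, were picked with earlier results of these data known, so counts of them are a description. Each symbol stood on 1 of the 58884 gene rows of the deposited matrix, and all 10 were among the 16701 rows with a mean of at least 10 normalized read counts, which were the rows tested. The libraries came from KYSE450, an esophageal squamous cell carcinoma (ESCC) line with wild-type NRF2, and from KEAP1null-KYSE450, a monoclonal line derived from it by CRISPR-Cas9 with a guide to exon 2 of *KEAP1*. Cells of both lines were untreated and grown in RPMI1640 medium, and total RNA of 3 libraries per line was sequenced. KEAP1null-KYSE450 is 1 clone, so a difference of that clone and a difference caused by the loss of KEAP1 cannot be told apart. No source says that the libraries of a line were separate cultures, so the p-values measure the spread between these libraries, which may be technical.

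Thioredoxin is a small protein that reduces disulfides of other proteins, among them the peroxiredoxins, which break down hydrogen peroxide and are oxidized in doing so. Thioredoxin reductase returns thioredoxin to its reduced form with electrons from NADPH, and TXNIP binds reduced thioredoxin and blocks it. Peroxiredoxins that are oxidized too far are rescued by sulfiredoxin. KEAP1 normally holds the transcription factor NRF2 at a low level, and NRF2 acts on genes through the antioxidant response element (ARE). *TXNIP* is known to be switched on by glucose through the factors MLXIP and MLX, which bind a carbohydrate response element (ChoRE).

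Upstream sequence of the members was searched for these elements, with the ARE core spelled TGACNNNGC and the ChoRE as CACGNG repeated after a spacer of 5 bases, both read on either strand. RefSeq windows (GRCh38.p14) of the 250 bases before a start site were at hand for 8 members, in 11 windows, and 3 of these windows held a match. The 3 with a match are shown, and they belong to *TXNRD1* and *TXNIP*, which are compared side by side in what follows. Another *TXNIP* window, chr1:145995745-145995994, held neither spelling, and no window was at hand for *PRDX1* or *PRDX6*. The matched letters are in capitals and each sequence runs 5′ to 3′ in the direction of its gene. The first *TXNRD1* window is chr12:104215529-104215778 on the plus strand, with the ARE core 99 to 91 bases before the start, and the second, before an alternative start, is chr12:104286782-104287031, with the core on the opposite strand 102 to 94 bases before the start. The *TXNIP* window shown is chr1:145996580-145996829 on the minus strand, with the ChoRE 88 to 72 bases before the start.
TXNRD1, first start: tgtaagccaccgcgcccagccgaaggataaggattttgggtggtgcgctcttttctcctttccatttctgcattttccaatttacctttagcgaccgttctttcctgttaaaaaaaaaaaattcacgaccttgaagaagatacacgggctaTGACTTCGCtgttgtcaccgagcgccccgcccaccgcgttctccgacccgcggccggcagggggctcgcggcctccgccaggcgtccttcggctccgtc
TXNRD1, alternative start: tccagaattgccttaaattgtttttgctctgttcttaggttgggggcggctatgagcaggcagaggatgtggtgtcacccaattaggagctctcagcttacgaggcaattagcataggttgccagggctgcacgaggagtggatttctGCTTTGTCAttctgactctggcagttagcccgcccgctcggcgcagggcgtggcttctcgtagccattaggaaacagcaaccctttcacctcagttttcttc
TXNIP: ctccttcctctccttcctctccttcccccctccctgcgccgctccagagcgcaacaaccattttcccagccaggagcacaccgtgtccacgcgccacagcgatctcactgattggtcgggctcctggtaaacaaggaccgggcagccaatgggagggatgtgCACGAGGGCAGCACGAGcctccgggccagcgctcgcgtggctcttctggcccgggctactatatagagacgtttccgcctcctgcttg
Of the 35116 RefSeq windows of the same length, 10.9% held the ARE core, while 16 windows, or 0.0456%, held the ChoRE. The windows of *TXN*, *SRXN1*, *PRDX2*, *PRDX3*, *PRDX4* and *PRDX5* held neither spelling, nor did that of *ARRDC4*, a relative of *TXNIP* described further on, which says only that these letters are not in these 250 bases.

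The targeted gene was examined first. *KEAP1* stood at 5760, 5226 and 5146 normalized counts in KYSE450 libraries and at 5737, 4906 and 5317 in KEAP1null-KYSE450 libraries, with overlapping ranges. The log2 fold change was -0.017 (SE 0.096, adjusted p = 0.90), so the amount of its mRNA does not separate the lines, and counts per gene do not show an edit. *NFE2L2*, the gene of NRF2, was at 11010 ± 341 and 7948 ± 144 (SD, n = 3, log2 fold change -0.47, adjusted p = 6.3e-04), while edgeR on 4 libraries gave it an adjusted p of 0.058. All 5 markers of squamous epithelium (*TP63*, *KRT5*, *KRT6A*, *DSG3* and *SFN*) were above the floor of 3 reads in the libraries, with summed levels of 277502 to 379375 in KYSE450 and 554026 to 692002 in KEAP1null-KYSE450. The larger sum was carried by *KRT5* (208100 and 568248, log2 fold change 1.46). *DSG3* was also higher (0.41), while *KRT6A* fell from 71578 to 2738 (log2 fold change -4.70), *TP63* was lower (-0.60) and *SFN* was lower (-0.41), each past the adjusted p, and the part of these changes in the results that follow was not tested. Of 3 markers each of leukocytes, endothelium, fibroblasts and other epithelium, *PECAM1* and *CDX2* were at 0, and the summed levels were at most 9.10, 73.8, 838.5 and 13.99. The fibroblast sum came almost wholly from *COL1A1*, while *COL1A2* did not exceed 0.92.

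By an adjusted p under 0.05 together with a log2 fold change of at least 1, 5 of the 10 genes were higher in KEAP1null-KYSE450 cells: *TXN*, *TXNRD1*, *TXNIP*, *SRXN1* and *PRDX1*. No member was lower by these thresholds. Over all rows tested, 12.2% were higher by these thresholds, 5.98% were lower and 18.2% were either. With the adjusted p alone, 7 members were higher and 0 lower, against 24.3% of the rows higher, 25.5% lower and 49.8% either. The libraries of the lines did not overlap for 8 members, 7 of them higher and 1 lower, against 28.4% of the rows without overlap and higher, 29.3% without overlap and lower, and 57.8% in all. The median log2 fold change of the 10 members was 1.09, beside 0.0041 over the rows tested.

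**Figure D1:**
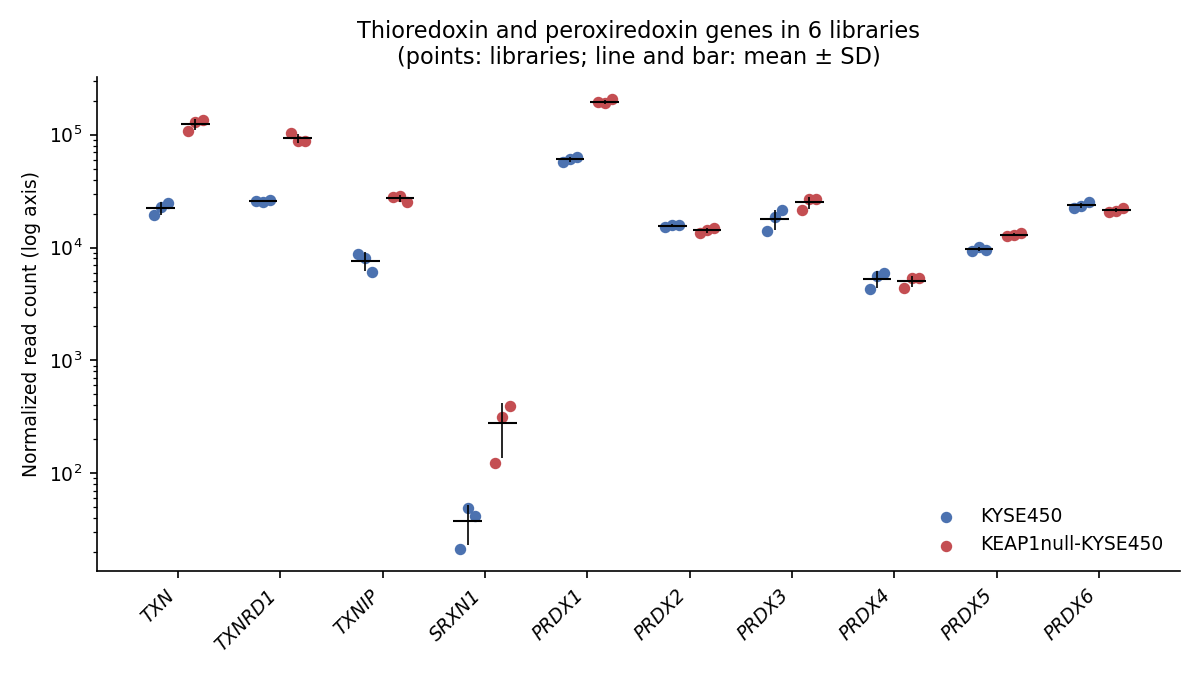
Normalized read count (log axis) of each of the 10 genes in the 3 KYSE450 and the 3 KEAP1null-KYSE450 libraries, with points for libraries and a line and bar for the mean ± SD. *TXN*, *TXNRD1*, *TXNIP*, *SRXN1* and *PRDX1* stand well above their KYSE450 values, while *PRDX4* and *PRDX6* overlap between the lines.

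*TXN*, which encodes cytosolic thioredoxin, lies on chr9:110243810-110256507 of hg38 (minus strand). It was measured at 19242, 22831 and 25006 normalized counts in KYSE450 libraries and at 107968, 129909 and 135003 in KEAP1null-KYSE450 libraries. The lowest KEAP1null-KYSE450 library was far above the highest KYSE450 library. The means were 22360 ± 2911 and 124293 ± 14366 (SD, n = 3), a 5.57-fold difference on the log2(normalized count + 1) scale used for all fold changes here. The log2 fold change of *TXN* was 2.48 (SE 0.13, adjusted p = 1.2e-08 from limma). Processed pseudogenes of *TXN*, on 7 rows, summed to at most 64.6 normalized counts in a library, 0.083% or less of gene and pseudogenes together.

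*TXNRD1*, the gene of the cytosolic thioredoxin reductase, a selenoprotein, spans chr12:104215779-104350307 (plus strand). Its values were 25703, 25083 and 26424 in KYSE450 and 102782, 87352 and 88528 in KEAP1null-KYSE450 libraries. The KYSE450 libraries were close together, with the highest at 1.05 times the lowest, and no library of the other line came near them. The means of 25737 ± 671 and 92887 ± 8589 (SD, n = 3) differed 3.60-fold (log2 fold change 1.85, SE 0.10, adjusted p = 2.9e-08).

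*TXNIP*, the inhibitor of thioredoxin and a protein of the arrestin family, lies on chr1:145992435-145996579 (minus strand). It stood at 8732, 8138 and 6038 in KYSE450 and at 28285, 28605 and 25126 in KEAP1null-KYSE450 libraries. Within each line the third library was the lowest, and the lines did not overlap. The mean rose from 7636 ± 1415 to 27339 ± 1922 (SD, n = 3), or 3.62-fold (log2 fold change 1.86, SE 0.13, adjusted p = 2.1e-07). The 95% intervals of the inhibitor and the reductase, 1.57 to 2.14 and 1.62 to 2.07 on the log2 scale, overlapped, and their difference was not tested.

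*SRXN1* encodes sulfiredoxin and lies on chr20:646615-653200 (minus strand). Its normalized counts were the lowest of the members, at 21.4, 49.5 and 42.0 in KYSE450 libraries and at 123, 316 and 395 in KEAP1null-KYSE450 libraries. The spread within a line was wide, with the highest library at 2.32 and 3.22 times the lowest, yet the lowest KEAP1null-KYSE450 value was above the highest KYSE450 value. The mean rose from 37.6 ± 14.6 to 278 ± 140 (SD, n = 3), 6.84-fold (log2 fold change 2.77, SE 0.41, 95% interval 1.88 to 3.67, adjusted p = 1.4e-04).

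The annotation limits what the level of *SRXN1* means. Of its 2528 exonic bases in gencode v44, 2292 (90.7%) also belong to *AL121758.1*, a gene on the same strand that runs through *SRXN1*, and 236 bases do not. *AL121758.1* was listed at 0 in all 6 libraries. Of its own 2714 exonic bases, 2624 are shared with other genes and 90 are not, so the 0 does not show that it is silent. How reads in shared exons were assigned is not given in the sources used here, so the measured level may rest on a small part of the transcript, while both lines share the same gene model.

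**Figure D2:**
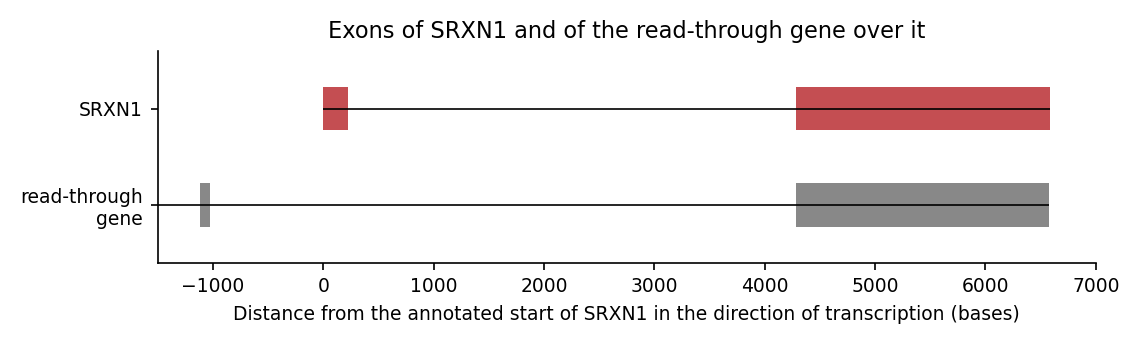
Exons (boxes) of *SRXN1* and of the gene read through it, by distance in bases from the annotated start of *SRXN1* in the direction of transcription, with introns as lines. A further exon of the other gene, at -22600 to -22269, lies outside the axis and is not drawn. The second exon of *SRXN1* is covered by an exon of the other gene, with 2292 bases in common.

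Of the 6 peroxiredoxins, the cytosolic *PRDX1* was the one past both thresholds, and the 95% intervals of the others lay below a log2 fold change of 1. *PRDX1* lies on chr1:45510914-45542732 (minus strand) and stood at 57482, 61027 and 63272 in KYSE450 and at 194080, 190112 and 205498 in KEAP1null-KYSE450 libraries. The highest library was at 1.10 and 1.08 times the lowest within the lines, and the lines were far apart. The mean rose from 60594 ± 2919 to 196563 ± 7988 (SD, n = 3), 3.24-fold (log2 fold change 1.70, SE 0.11, adjusted p = 1.1e-07). *PRDX1* shares 501 of its 1682 exonic bases with *MMACHC* on the opposite strand, and whether strand was used in counting is not given in the sources used here. *MMACHC*, a gene of cobalamin metabolism, was lower in KEAP1null-KYSE450 cells (1153 ± 77.7 against 556 ± 12.3 (SD, n = 3), log2 fold change -1.05, adjusted p = 1.1e-05), the opposite direction.

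*PRDX2*, the other cytosolic peroxiredoxin (chr19:12796820-12801800), was measured at 15225, 15926 and 15770 in KYSE450 and at 13518, 14237 and 14759 in KEAP1null-KYSE450 libraries. All KEAP1null-KYSE450 values were below the KYSE450 values, but the gap was narrow. The log2 fold change of -0.14 had a 95% interval of -0.33 to 0.05 (SE 0.09, adjusted p = 0.20).

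*PRDX3*, the mitochondrial peroxiredoxin (chr10:119167720-119178812), stood at 14115, 18708 and 21319 in KYSE450 libraries and at 21531, 26873 and 27011 in KEAP1null-KYSE450 libraries. The first library was the lowest of each line, and the highest KYSE450 value almost reached the lowest KEAP1null-KYSE450 value. The log2 fold change was 0.49 (SE 0.15, 95% interval 0.18 to 0.81, adjusted p = 0.014), below the fold threshold. The adjusted p of *PRDX3* was above 0.05 in 5 of 17 other settings, among them 0.061 without KEAP1null-KYSE450 library 2 and 0.064 without KEAP1null-KYSE450 library 3.

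*PRDX5*, which is found in mitochondria, peroxisomes and cytosol (chr11:64318121-64321811), stood at 9379, 10131 and 9514 in KYSE450 and at 12720, 12781 and 13484 in KEAP1null-KYSE450 libraries. The values of the lines were separate and the replicates tight. Its log2 fold change was 0.43 (SE 0.09, 95% interval 0.24 to 0.62, adjusted p = 0.0015), again below the fold threshold.

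*PRDX4*, the peroxiredoxin of the endoplasmic reticulum (ER) (chrX:23664262-23686397), had 4299, 5570 and 6000 normalized counts in KYSE450 and 4365, 5348 and 5397 in KEAP1null-KYSE450 libraries. The KEAP1null-KYSE450 values lay inside the range of KYSE450, and the log2 fold change was -0.06 (95% interval -0.35 to 0.22, adjusted p = 0.71). *PRDX6*, which works with glutathione instead of thioredoxin (chr1:173477330-173488815), had 22499, 23252 and 25147 in KYSE450 and 20821, 21182 and 22581 in KEAP1null-KYSE450 libraries. The ranges overlapped by a narrow margin, with a log2 fold change of -0.13 (95% interval -0.34 to 0.07, adjusted p = 0.25). For *PRDX2*, *PRDX4* and *PRDX6* all 3 intervals lay between -0.35 and 0.22, but an adjusted p above 0.05 does not show equal levels, and the sign of all 3 turned after quantile normalization (0.067, 0.083 and 0.072).

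**Figure D3:**
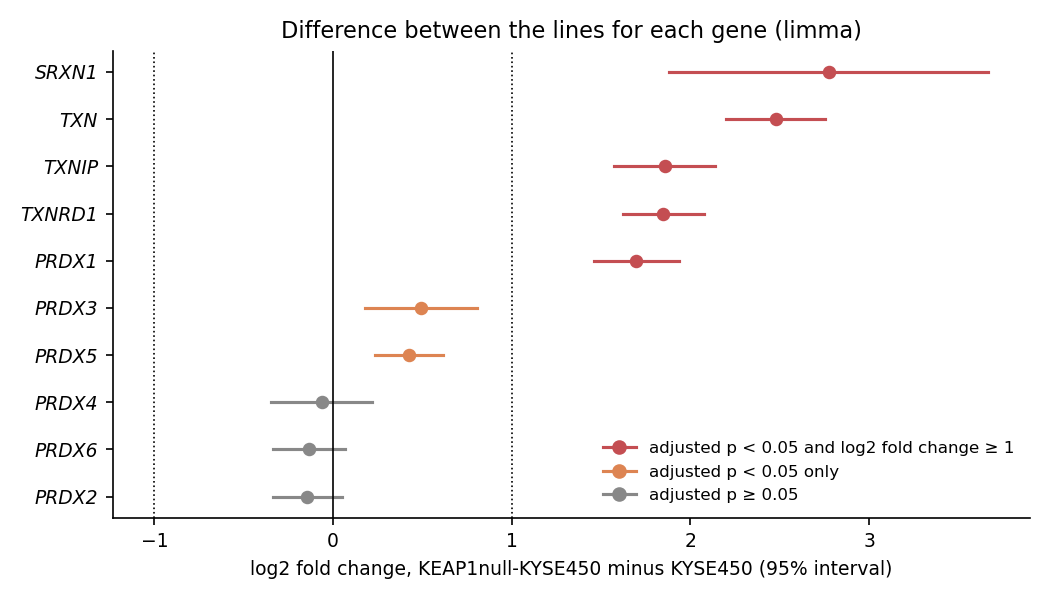
Log2 fold change of each gene (KEAP1null-KYSE450 minus KYSE450) with its 95% interval from limma. The estimates of 5 genes lie beyond 1, *PRDX3* (0.49) and *PRDX5* (0.43) lie between 0 and 1 with intervals above 0, and the intervals of *PRDX2*, *PRDX4* and *PRDX6* cross 0.

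The first library was the lowest of its line in both lines for 7 of the 10 members, the exceptions being *TXNRD1*, *TXNIP* and *PRDX1*, and for 20.4% of the rows tested. The libraries are numbered by column order within a line, so a number does not pair libraries. The first library was at 0.47 and 0.34 of the mean of the other libraries for *SRXN1* in KYSE450 and KEAP1null-KYSE450, at 0.71 and 0.80 for *PRDX3*, at 0.74 and 0.81 for *PRDX4* and at 0.80 and 0.82 for *TXN*. Without the first library of both lines, a setting chosen after these values were seen, 5 members were still higher by both thresholds and the log2 fold change of *PRDX3* was 0.43 (adjusted p = 2.3e-04).

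To compare genes with each other, normalized counts were divided by the exonic length of the gene in kilobases. In KYSE450 cells *PRDX1* was highest at 36025 ± 1736 normalized counts per kilobase (SD, n = 3), followed by *TXN* at 22138 ± 2882. *PRDX5* (11250), *PRDX6* (10226), *PRDX2* (7689), *PRDX3* (5341), *TXNRD1* (3836), *PRDX4* (2852) and *TXNIP* (2119) came next on this scale, and *SRXN1* was last at 14.9. Neighbours in this order did not overlap except *PRDX4* and *TXNIP*.

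In KEAP1null-KYSE450 cells *TXN* (123063 ± 14223 per kilobase) and *PRDX1* (116863 ± 4749) overlapped at the top. The length of *PRDX1* includes the 501 bases shared with *MMACHC*, and whether *TXN* and *PRDX1* overlap over its 1181 unshared bases was not computed. *PRDX5* (15111) and *TXNRD1* (13843) overlapped as well, and so did *TXNIP* (7586) with *PRDX3* (7440) and *PRDX3* with *PRDX2* (6967). *PRDX6* (9315), *PRDX4* (2715) and *SRXN1* (110) overlapped no neighbour. *TXNRD1* went from place 7 to place 4 and *TXNIP* from place 9 to place 6. With the length of the longest transcript, *PRDX6* came before *PRDX5* in KYSE450 cells, and *TXNRD1* before *PRDX5* and *PRDX3* before *TXNIP* in KEAP1null-KYSE450 cells. Counted over the 236 unshared bases, *SRXN1* would stand at 159 and 1178 per kilobase, last in both lines on that length. How its reads were assigned is not known, so its place among the members is not settled.

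The share of *PRDX1* in the summed peroxiredoxin level per kilobase was 49.7%, 48.7% and 48.9% in KYSE450 libraries and 74.7%, 73.0% and 73.7% in KEAP1null-KYSE450 libraries. These shares rest on all 1682 exonic bases of *PRDX1*, 501 of them shared with *MMACHC*. They were not recomputed over its 1181 unshared bases, on which its share would be larger in both lines. The sum itself was 73383 ± 4144 and 158411 ± 6388 per kilobase (SD, n = 3). The mean shares of the other peroxiredoxins were smaller in KEAP1null-KYSE450 cells, with *PRDX6* at 13.9% ± 0.37 and 5.88% ± 0.05, *PRDX2* at 10.5% ± 0.40 and 4.40% ± 0.11, and *PRDX5* at 15.4% ± 0.83 and 9.54% ± 0.07 (SD, n = 3). *PRDX3* held 7.24% ± 1.08 and 4.69% ± 0.52, and *PRDX4* held 3.87% ± 0.44 and 1.71% ± 0.17. As parts of the same sum, these shares shrink where that of *PRDX1* grows and do not show lower levels. *PRDX3* and *PRDX5* had log2 fold changes of 0.49 and 0.43.

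**Figure D4:**
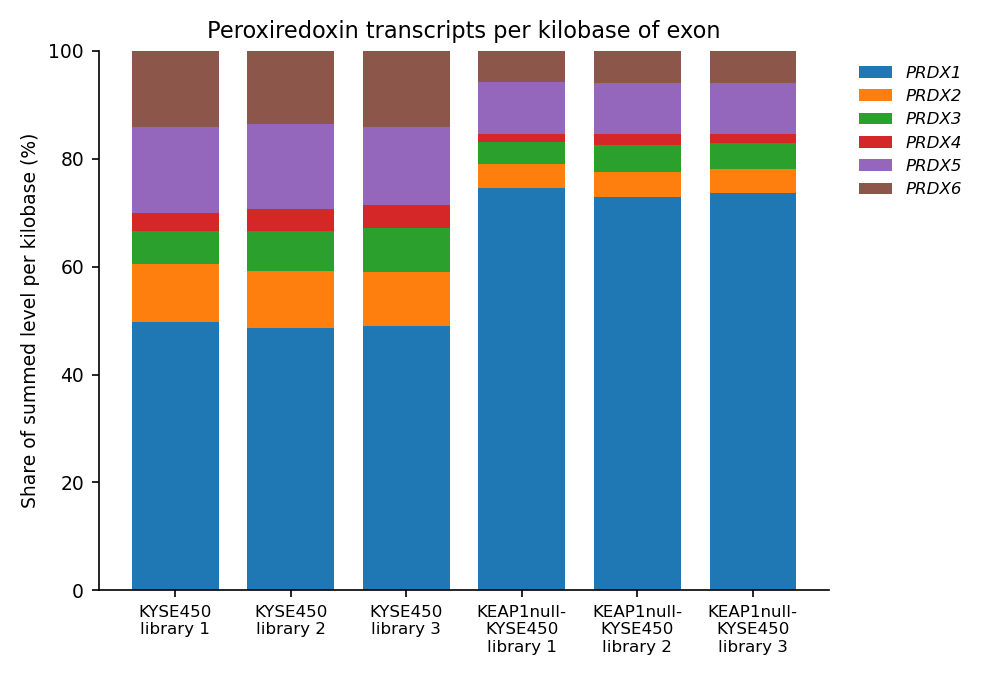
Share (%) of each peroxiredoxin in the summed level per kilobase of exon, stacked for each of the 6 libraries. *PRDX1* takes 48.7% to 49.7% in KYSE450 and 73.0% to 74.7% in KEAP1null-KYSE450 libraries.

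Ratios of levels per kilobase within a library were compared next, as a description. Thioredoxin over its reductase (*TXN* to *TXNRD1*) was 4.97 to 6.29 in KYSE450 and 6.98 to 10.1 in KEAP1null-KYSE450 libraries, without overlap. *TXN* over the summed peroxiredoxins was 0.301 ± 0.023 and 0.776 ± 0.074 (SD, n = 3). *TXN* over its inhibitor *TXNIP* ranged from 7.86 to 14.8 and from 13.6 to 19.2, with overlap. *TXNRD1* over *TXNIP* was 1.86 ± 0.42 and 1.83 ± 0.17 (SD, n = 3), with overlap.

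A list of 50 other genes of the thioredoxin network was read beside the members, and all 50 were tested. By both thresholds 4 were higher and 4 lower, and by the adjusted p alone 16 were higher, 15 lower and 19 neither, with a median log2 fold change of -0.03. Over all rows tested the shares were 12.2% and 5.98% by both thresholds, and 24.3% and 25.5% by the adjusted p, which are the shares to set beside the counts of the groups too.

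Of 7 other thioredoxins and reductases, none passed both thresholds. Neither gene of the mitochondrial pair passed the adjusted p. *TXN2* stood at 5293 and 5839 normalized counts (log2 fold change 0.14, adjusted p = 0.22), with all KEAP1null-KYSE450 libraries above the KYSE450 libraries. *TXNRD2* stood at 1013 and 1014 (0.007, adjusted p = 0.97), with overlap. *TXNRD3* (0.42) and *TXNL1* (0.36) were higher and *NXN* (-0.57) lower by the adjusted p alone. Among 5 genes of the glutathione-linked counterpart, glutaredoxins and glutathione reductase, *GSR*, which keeps glutathione reduced, rose from 6174 ± 305 to 13415 ± 707 (SD, n = 3, log2 fold change 1.12, adjusted p = 8.5e-07), *GLRX* was higher (0.75) and *GLRX3* lower (-0.50) by the adjusted p alone.

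The 14 thioredoxin-fold proteins of the ER and their oxidases, which form, rearrange or reduce disulfides of proteins there, had a median log2 fold change of -0.57, with 9 lower and 1 higher by the adjusted p, beside 25.5% and 24.3% of all rows. *ERO1A*, an oxidase that recharges protein disulfide isomerases, fell from 9169 ± 1438 to 3686 ± 535 (log2 fold change -1.31, adjusted p = 6.1e-06). The sulfhydryl oxidase *QSOX1* fell from 3727 ± 1156 to 1648 ± 355 (-1.15, adjusted p = 6.1e-04) and the isomerase *PDIA4* from 12267 ± 1350 to 6067 ± 1321 (-1.03, adjusted p = 6.3e-05, SD and n = 3 throughout). *PDIA3* (-0.90), *P4HB* (-0.60) and *PDIA6* (-0.59) passed the adjusted p alone, and *TMX4* was the gene of the group that was higher (0.75). The fold of *PDIA4* was below the threshold in 7 of 16 other settings and that of *QSOX1* in 4, edgeR and DESeq2 among them for both.

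All 3 sestrins, stress-induced proteins that have been linked to peroxiredoxin repair, were higher by the adjusted p, beside 24.3% of all rows. *SESN3* rose from 10752 ± 634 to 33530 ± 2245 (SD, n = 3, log2 fold change 1.64, adjusted p = 4.0e-08), while *SESN1* (0.75) and *SESN2* (0.71) were below the fold threshold. Of 8 enzymes and kinases that thioredoxin serves or holds, 4 were higher and 2 lower by the adjusted p, beside 24.3% and 25.5%. *MSRB2*, a mitochondrial methionine sulfoxide reductase, rose from 295 ± 45.8 to 683 ± 99.1 (1.21, adjusted p = 5.8e-05). *RRM1*, the large subunit of ribonucleotide reductase, fell from 25991 ± 367 to 12463 ± 1163 (-1.06, adjusted p = 2.3e-06, SD and n = 3 for both), and its fold was below the threshold by edgeR (-0.99) and after quantile normalization (-0.86).

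Among 7 arrestin relatives and regulators of *TXNIP*, *ARRDC4*, its closest relative, rose from 2044 ± 108 to 17259 ± 788 (SD, n = 3, log2 fold change 3.08, SE 0.09, adjusted p = 4.8e-11). This was the largest estimate among the list and the members, though it lay inside the interval of *SRXN1*. *ARRDC1* (-0.02), *ARRDC3* (-0.26) and *MLX* (-0.21) did not pass the adjusted p, and *MLXIP* (0.33) was higher and *ARRDC2* (-0.39) lower by the adjusted p alone. *MLXIPL* (0.51, adjusted p = 0.076 from limma) did not pass it either, though its libraries did not overlap between the lines (70.0 ± 4.34 and 100 ± 6.45, SD, n = 3). Of 6 genes for selenocysteine insertion, which a reductase such as TXNRD1 needs, none passed both thresholds, with *PSTK* (0.74) and *EEFSEC* (0.36) higher and *SEPHS1* (-0.35) lower by the adjusted p.

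**Figure D5:**
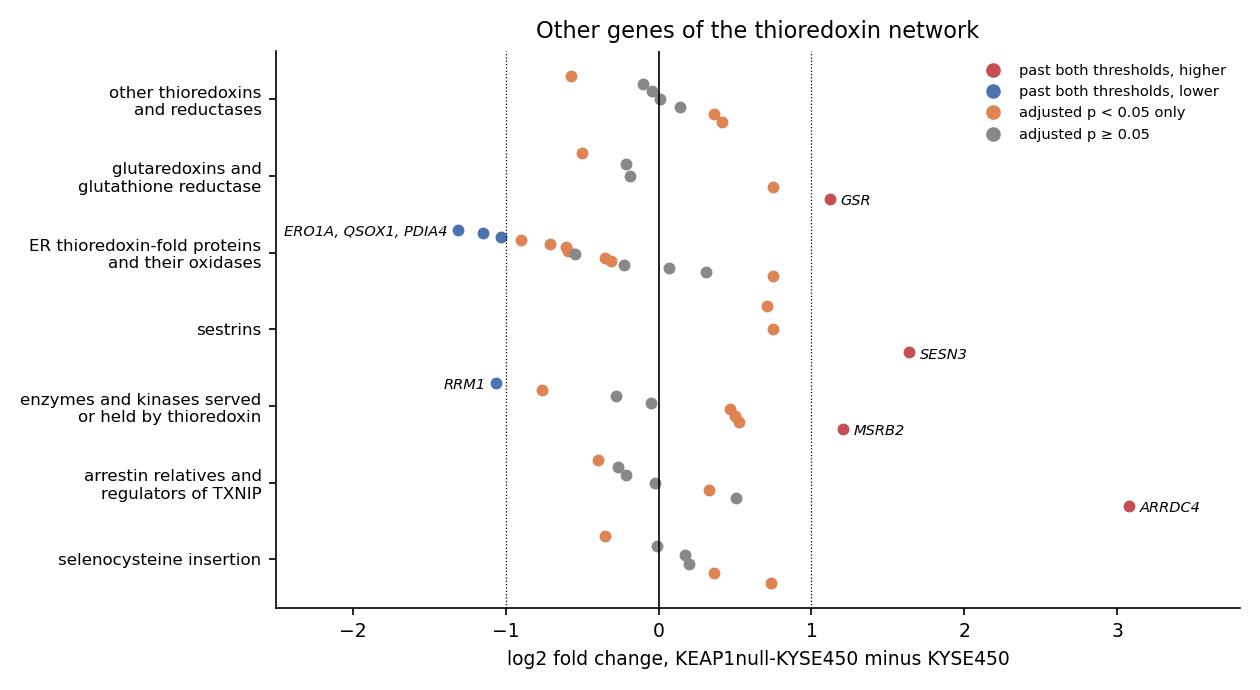
Log2 fold change (KEAP1null-KYSE450 minus KYSE450) of the 50 other genes of the thioredoxin network, 1 point a gene, in 7 groups. *ARRDC4* (3.08) stands farthest to the right, and most of the 14 genes of the ER group lie left of 0, with *ERO1A* (-1.31) farthest.

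The surroundings of each member were read from the 3 nearest tested genes on each side. Of these 60 genes, 9 were higher and 4 lower by both thresholds, near the 12.2% and 5.98% of all rows tested. Around *TXNRD1*, 3 of 6 were higher, whereas 0 of 6 around *TXN* (log2 fold changes of -0.73 to 0.77) and 0 of 6 around *TXNIP* (-0.45 to 0.44) passed. *EID3* lies inside an intron of *TXNRD1* on the same strand, with no exonic base in common, and stood at 4.28, 1.01 and 1.86 normalized counts in KYSE450, near or under the floor, and at 181, 181 and 216 in KEAP1null-KYSE450 libraries. The antisense RNA *AC089983.1*, also within *TXNRD1*, had 36.4, 31.3 and 28.9 against 98.7, 189 and 178 (log2 fold change 2.18, adjusted p = 6.6e-05). *CHST11*, the neighbour beyond, had a log2 fold change of 3.32 (adjusted p = 4.5e-06). The processed pseudogene *RPL18AP3* also lies within *TXNRD1*, on the same strand with no exonic base in common. It stood at 456 ± 28.5 in KYSE450 and 488 ± 63.8 in KEAP1null-KYSE450 (SD, n = 3, log2 fold change 0.089, adjusted p = 0.63). Whether reads of the *TXNRD1* introns enter the values of these nested genes was not tested. Beside *PRDX1*, the aldo-keto reductase *AKR1A1* was higher by a log2 fold change of 1.70 (adjusted p = 1.1e-08). The other neighbours past both thresholds were *SLC52A3* beside *SRXN1*, *PHEX* and *PTCHD1* beside *PRDX4*, *CCDC88B* beside *PRDX5* and *TNFSF4* beside *PRDX6*, all higher, and *MMACHC* beside *PRDX1*, *JUNB* and *RNASEH2A* beside *PRDX2* and *GRK5* beside *PRDX3*, all lower.

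For the reductase and the inhibitor, the rows whose profile over the 6 libraries was most alike were sought among 7757 rows with a mean of at least 1000, by the root mean square distance between centred log2 values. For *TXNRD1* these were *BLMH* and *SQSTM1* (0.094 each), *COBLL1* (0.096), *MAP3K14* (0.11) and *RETREG1* (0.12). For *TXNIP* they were *KRT15* (0.089), *METTL7A* (0.11), *ALDH3A1* (0.12), *BLMH* (0.13) and *SCARA3* (0.15). *BLMH* was in both lists. *KRT15*, a keratin of basal squamous cells, ran at 81247, 77735 and 50419 normalized counts in KYSE450 and 235886, 234833 and 206602 in KEAP1null-KYSE450 libraries, with the third library lowest in both lines as for *TXNIP*. The rows were picked on these same 6 libraries, so such shared features follow from the search and are not separate evidence.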

How the data were processed

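Total RNA of 3 KYSE450 and 3 KEAP1null-KYSE450 libraries was sequenced. The authors trimmed reads, aligned them to hg38 and counted them per gene. Their processing notes list FastQC (0.11.5), cutadapt (1.12), STAR (2.6.90c) and featureCounts (1.5.1). The deposited signal is a normalized read count, a count divided by 1 factor per library. Summed normalized counts were 54829313 to 57380170 per library. In all 6 libraries 100% of values were whole multiples of the library's step within 0.1. Reads were recovered for 4 libraries (KYSE450 1 and 3, KEAP1null-KYSE450 1 and 2), totalling 53027359 to 61543442, since the step of the other 2 was too near 1. Floors of 3 reads were 2.77 to 3.21 and cover counting error only.

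Differences were tested two-sided with limma (3.58.1, R 4.3.3, eBayes with trend) after adding 1 to each normalized count and taking log2, for rows with a mean of at least 10, with Benjamini-Hochberg adjustment over all 16701 rows. Both thresholds means a log2 fold change of 1 or more in size with an adjusted p below 0.05. Levels per kilobase used the union of gencode v44 exons. Alternatives were no filter, a filter at a mean of 100, pseudocounts of 0.1 and 10, equal totals, quantile normalization, each library left out, no trend, no fold cutoff, a test against a fold of 2, and edgeR (4.0.16) and DESeq2 (1.42.0) on the 4 libraries with recovered reads. Rows of a symbol were also summed, a setting that repeats the fit reported because no member stood on several rows. Tests were tried on simulated data.

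The genes named were the members, *KEAP1*, list genes past both thresholds, up to 4 a group, the 5 most alike rows of *TXNRD1* and *TXNIP*, overlapping genes, pseudogenes, and neighbours past both thresholds. List genes that passed the adjusted p alone or passed neither were named after their values were seen. The members and lists were chosen with earlier results of these data known. Marker lists came from textbook knowledge. Promoter windows came from RefSeq.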

Additional observations from a re-analysis of the deposited data

How the results depend on the processing

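The count of members higher by both thresholds was 5 and that of lower members 0 in every setting that kept the fold threshold, and 7 and 0 without it. The log2 fold changes over 17 settings were 2.37 to 2.57 for *TXN*, 1.77 to 1.90 for *TXNRD1*, 1.69 to 2.03 for *TXNIP*, 2.42 to 3.28 for *SRXN1* and 1.57 to 1.73 for *PRDX1*, with adjusted p-values up to 0.0090. *PRDX3* (0.32 to 0.69) had an adjusted p above 0.05 in 5 settings, with 0.080 without trend, 0.10 by edgeR and 0.089 by DESeq2. After quantile normalization the sign turned for *PRDX2* (0.067), *PRDX4* (0.083), *PRDX6* (0.072) and *KEAP1* (0.14), and for *KEAP1* also after rescaling to equal totals (0.016). With a library left out, *PRDX4* lay between -0.21 and 0.037 and *KEAP1* between -0.072 and 0.040. Of the 50 other genes, 4 were lower in the fit reported, 1 by edgeR, 2 by DESeq2 and 2 to 5 with a library left out (2 without KYSE450 library 1 or without KEAP1null-KYSE450 library 3). *PDIA4*, *QSOX1* and *RRM1* were the genes whose fold fell below the threshold, at -0.91, -0.96 and -0.99 by edgeR. Without a fold threshold 16 were higher and 15 lower. The cause was not tested. Over all rows, 2045 were higher and 999 lower (67.2% higher), against 1388 and 1289 (51.8%) after quantile normalization, and 626 and 395 in the test against a fold of 2. No paired analysis was possible because the columns carry no replicate number. Depth limits *EID3* in KYSE450 cells, where no fold is given because its values lie near 3 reads.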
